A study of Nicrophorus vespilloides with 60 samples.

Results

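The 150 genes described here varied more between families than the other eligible genes of the larval head, while their average level differed little between care environments and between lines. They were chosen on measured values. Counts were scaled to CPM (a gene's count divided by the total of its library, times 1000000), and L was log2(CPM + 1). The SD of L was taken within each of the 8 groups of families and averaged. Genes were eligible when their mean CPM lay from 1 to 500, when mean L differed by less than 0.3 between environments and when the 4 line means spanned less than 1. Of the 13761 genes in the table, 5037 were eligible, and the 150 with the highest mean SD were kept. The SD, the levels by environment and the levels by line therefore chose the genes, and they are given as a description. How the genes moved together was not used directly to choose them. A choice by SD can still favour genes that deviate in the same libraries, so their correlations are not independent of the rule.

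Families can differ in gene expression through inherited alleles, through what parents supply and through the stage and condition of the larvae at sampling. Genes that share a regulator, a cell type or a stage of the moult often rise and fall together over individuals, so that co-variation over samples groups genes even where their products are unknown. In insects, the cuticle is shed and rebuilt at each moult, and the cuticle proteins are made in pulses around it.

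The libraries came from heads of first-instar larvae of the burying beetle *Nicrophorus vespilloides*, an insect whose parents feed and guard their brood on a small carcass. Laboratory populations were founded from 1 stock, made by crossing beetles of several wild populations. They had evolved with full parental care (FC_POP) or without it (NC_POP). Each was kept as a replicate line in each of 2 blocks, so that lines F1 and N1 formed block 1 and lines F2 and N2 block 2. Larvae were raised with their parents (FC_ENV) or after the parents had been removed (NC_ENV), which gave 12 FC_POP FC_ENV, 11 FC_POP NC_ENV, 11 NC_POP FC_ENV and 12 NC_POP NC_ENV families. Each of the 46 libraries held pooled heads of 1 family, and each family is named by its line and number (F1_14). With 1 library per family, differences between families and differences that arose in making the libraries cannot be told apart, and neither can fewer cells of a type and less RNA per cell.

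The libraries held between 102719698 and 145666277 counts (median 115258788), so that 1 CPM stood for more than 100 counts. Multiples of 4 made up 39.8% of counts between 1 and 100, so a count need not stand for 1 separate read. The size of the counting error was not tested. The libraries F2_31, F2_34, N1_30 and N1_27 stood apart most over the 150 genes, with mean absolute deviations of 1.38, 1.36, 1.29 and 1.18 SD, and without these 4 the rule kept 107 of the 150. No 2 libraries had identical columns, and the highest correlation between libraries was 0.989. The deposited table names genes by number only. A symbol could be given to 30 of the 150, of which 29 are annotated as protein-coding and gene385 (LOC108557567) as a long non-coding RNA. No product name was at hand for any of the 150, so no function is given for them.

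The mean SD of L ran from 0.601 to 1.49 over the 150 genes (median 0.733), against a median of 0.221 over the 5037 eligible genes. On the scale of CPM + 1, the highest family exceeded the lowest by 4.17 to 285 times, with a median of 11.9 times. As a group their median level was not low, but some were rare in many families. Their mean CPM had a median of 15.2 (from 1.01 to 431), close to the median of 18.8 over all 9387 genes in that range, and no gene was at 0 in more than 3 libraries. However, gene12375 was under 1 CPM, near the floor of L, in 36 families, gene1699 in 30, gene8485 in 28 and gene867 in 21. Others, such as gene6257 and gene4237, were under 1 CPM in no family. A single family did not carry the spread in most of the 150 genes: the family farthest from its group mean held a median of 14.8% of a gene's squared deviations, and at most 48.0%. That family was N1_30 for 21 genes, F2_31 for 19, N1_23 for 16 and N1_27 for 15. At the edge of the rule, gene12676 and gene10273 were just inside with mean SDs of 0.6015 and 0.6012, and gene4591 and gene2865 were just outside with 0.6010 and 0.5973.

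gene981 had the highest mean SD, 1.49. Its lowest, median and highest levels were 1.66, 9.28 and 36.3 CPM in FC_POP FC_ENV, and 0.0375, 11.5 and 33.5 CPM in FC_POP NC_ENV. They were 0.390, 8.30 and 35.5 CPM in NC_POP FC_ENV, and 0.0173, 14.2 and 43.6 CPM in NC_POP NC_ENV. All 4 groups overlapped over most of their range. gene981 was under 1 CPM in 6 families (F1_06, F2_41, N1_27, N1_30, N1_33 and N1_35) of 3 lines, and only 2 counts were recorded in N1_35. In the 4 groups of line and environment with no such family, its SD of L was still 0.726 to 1.42.

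gene3461 (LOC108557360), second with a mean SD of 1.31, reached lows of 0.397 CPM in F1_15, 0.663 in N1_30 and 0.856 in N1_25. Its group medians stayed between 7.60 and 16.8 CPM, and its highest value was 40.9 CPM in N2_07. gene6959 had the reverse shape, with group medians of 3.14 to 5.01 CPM and some high families. F1_14 reached 51.0 CPM in FC_POP FC_ENV, N2_16 29.4 in NC_POP FC_ENV and N2_08 25.4 in NC_POP NC_ENV, and the highest family of FC_POP NC_ENV was F1_06 with 12.1 CPM. gene6257 was spread without an isolated family, from 6.33 CPM in F2_28 to 211 CPM in N2_21, with group medians of 45.5 to 59.1 CPM. gene4237 (LOC108558251) was the most abundant of the 20 genes with the highest SD and ran from 33.2 CPM in F2_31 to 1397 CPM in N1_30. Of those 20 genes, 8 fell in the first of the sets described next, 3 in the second, 2 in the third, 3 in the fourth and 1 in the fifth, and 3 (gene6959, gene385 and gene1486) fell in none.

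**Figure D1:**
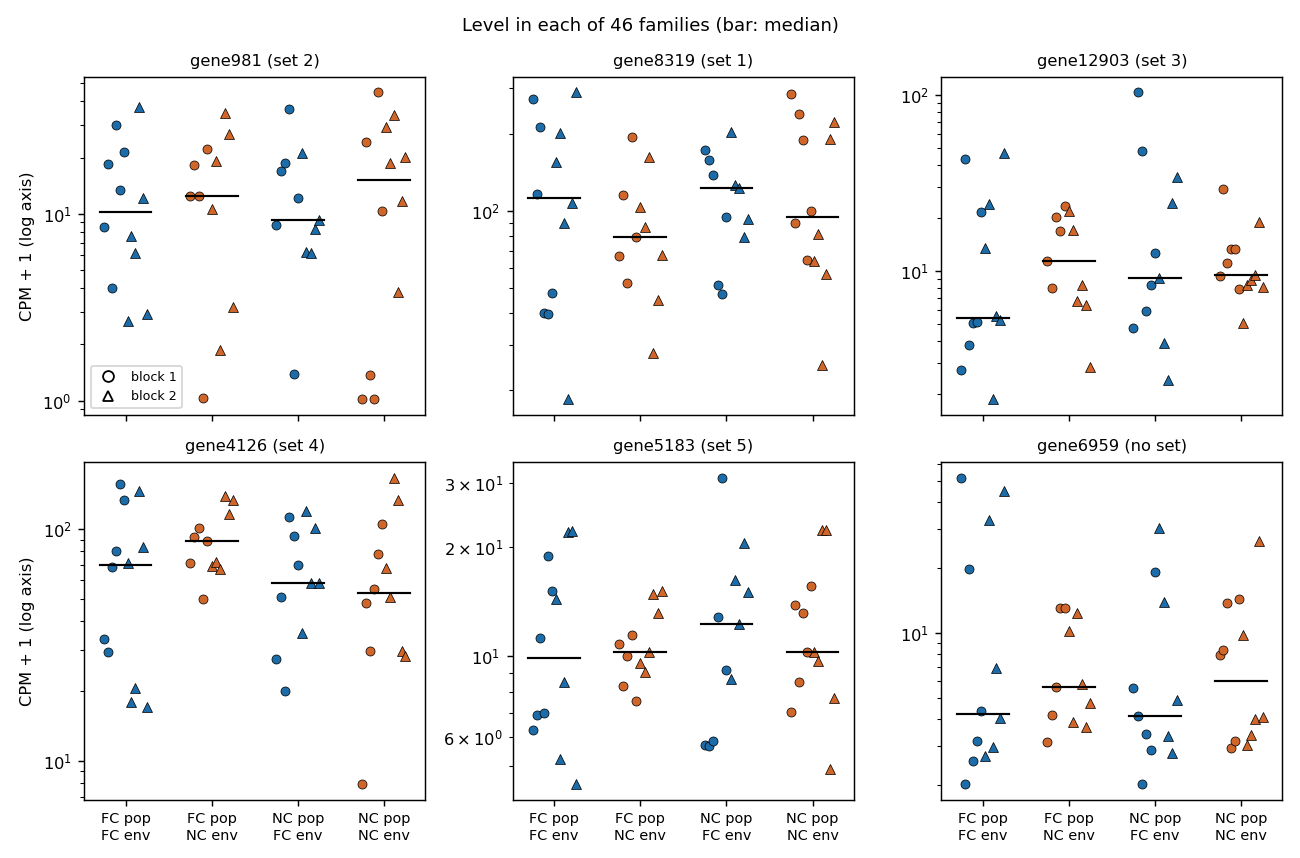
CPM + 1 on a log axis in each of 46 families for gene981, for 1 gene of each other set and for gene6959, which is in no set. Circles are block 1, triangles block 2, blue full care, orange no care, and bars medians. The 4 groups overlap for every gene shown, gene981 falls below 1 CPM in 6 families, and gene6959 has a few high families above medians of 3.14 to 5.01 CPM.

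To ask whether the 150 genes varied independently or together, deviations of L from the group mean were correlated between genes over the 23 families of each block. In block 1, 27.3% of the 11175 pairs of genes had an absolute r above 0.5, and 29.01% did in block 2. Over all 9387 genes at a mean of 1 to 500 CPM the shares were 17.3% and 21.4%. The excess lay on the negative side. Pairs with r under -0.5 made up 11.1% and 12.6% among the 150 genes and 3.51% and 4.67% among all, whereas pairs above 0.5 made up 16.2% and 16.4% against 13.8% and 16.7%. The mean r among the 150 was close to 0, at 0.0184 in block 1 and 0.0258 in block 2, where it was 0.124 and 0.131 among all genes. Pairs share the same families and libraries, so they are no independent points. The choice by SD may also have changed the shares among the 150, which was not tested.

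Most pairs with an absolute r above 0.5 in block 1 kept their sign in block 2, whose families are different. The 1805 pairs with r above 0.5 in block 1 had a mean r of 0.590 in block 2, and 96.5% were positive there. The 1244 pairs with r under -0.5 had a mean of -0.4999, and 8.52% were positive. Over all pairs of genes at a mean of 1 to 500 CPM, the mean r in block 2 was 0.131. How often those pairs kept their sign was not tested, so the shares here have no background.

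The 10 closest pairs of block 1, each gene used once, were then tested in the 23 families of block 2. All 10 correlated there, with Pearson's r from 0.838 to 0.958 and Spearman's rho from 0.824 to 0.928. By a two-sided permutation test within groups, Benjamini-Hochberg adjusted over the 10 pairs, p was 1e-05 for 9 of them, the smallest that 100000 permutations can give, and 5e-05 for the other. For rho the adjusted p ran from 2e-05 to 6e-05. The permutations set each pair against no co-variation at all within groups. Over all 9387 genes at a mean of 1 to 500 CPM, 16.7% of pairs had r above 0.5 in block 2. Pairs chosen in the same way from all genes were not tested. The SD in block 2 also helped to choose the genes. The p-values therefore have no background and are given as a description. Without the 2 families farthest from the median of the first gene, r was 0.782 to 0.942, and without F2_31 and F2_34 all 10 pairs passed with r of 0.855 to 0.940. The closest pair in block 1 was gene9595 and gene10970 (r = 0.982, and 0.947 in block 2), followed by gene10257 and gene10555 (0.980 and 0.957) and by gene1564 and gene11828 (0.970 and 0.884). The other pairs were gene5389 with gene2702, gene11984 with gene3045, gene8319 with gene11460, gene8316 with gene268, gene12903 with gene7647, gene3846 with gene852 and gene3826 with gene6683. No pair had adjacent identifiers.

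Grouping the 150 genes on block 1 alone (average linkage on 1 - r, sets of at least 5 genes with a mean r of at least 0.5) gave 5 sets that held 113 genes, and 37 genes fell in none. The mean r within sets, 0.588 over all within-set pairs, was then read in block 2 as a description, and it was 0.545 without F2_31 and F2_34. For each family, the level of a set was the mean of its genes' deviations from the group mean, each divided by its SD.

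Set 1 held 38 genes and kept its cohesion, with a mean r of 0.649 in block 1 and 0.662 in block 2, where 37 of the 38 genes correlated above 0.5 with the rest of the set. Its leading genes were gene8319, gene11460 and gene7244. gene8319 had lowest, median and highest levels of 17.5, 111 and 288 CPM in FC_POP FC_ENV, and of 27.02, 78.4 and 193 CPM in FC_POP NC_ENV. In NC_POP FC_ENV they were 46.4, 121 and 202 CPM, and in NC_POP NC_ENV 24.1, 93.7 and 285 CPM. The set separated families of the same group in opposite directions: F2_31 was lowest (-2.04 SD) and had the lowest deviation from its group mean for 22 of the 38 genes, while F2_34, of the same line and environment, stood at 1.64 SD. F1_14 was highest at 1.66 SD and had the highest deviation for 13 genes. Without F2_31 and F2_34, the mean r in block 2 was 0.565.

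Set 2 held 32 genes, among them gene981, and its leading genes were gene4347 (LOC108558375), gene11828 and gene1564. Its mean r was 0.768 in block 1, the highest of the 5, and 0.528 in block 2. gene4347 fell to 0.336 CPM in N1_30, 1.01 in F2_34, 1.87 in N1_27 and 2.06 in F1_06, while the medians of the 4 groups were 8.12 to 13.5 CPM. N1_30 stood at -2.28 SD, F1_06 at -1.92 and N1_27 at -1.66, and these 3 had the lowest deviation from the group mean for 14, 9 and 6 of the 32 genes. In the 6 families with gene981 under 1 CPM, the set mean lay from -2.28 to -0.847 SD. At the high end, N1_37 stood at 1.79 SD and had the highest deviation for 15 genes. In block 2, 27 of the 32 genes correlated above 0.5 with the rest, and gene4888 did not keep its sign (r = -0.218).

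Set 3 held 20 genes of low abundance, with a median of their mean levels of 3.54 CPM, and was led by gene867, gene12903 and gene7647. Some lay near the floor of L: gene1699 was under 1 CPM in 30 families, gene8485 in 28, gene12835 in 22, and gene867 and gene12317 in 21 each. Others did not, such as gene12903, under 1 CPM in 1 family. The part of this floor in the set's r and spread was not tested. Its mean r was 0.662 in block 1 and 0.458 in block 2. In block 2 it was 0.563 within FC_ENV and 0.237 within NC_ENV, a difference that was not tested. gene12903 had lowest, median and highest levels of 0.869, 4.39 and 45.7 CPM in FC_POP FC_ENV and of 1.39, 8.08 and 102 CPM in NC_POP FC_ENV. In FC_POP NC_ENV they were 1.85, 10.5 and 22.5 CPM, and in NC_POP NC_ENV 4.10, 8.44 and 28.1 CPM. The extremes on both sides were families raised with care. N1_23 was highest (2.29 SD) and had the highest deviation from its group mean for 16 of the 20 genes, F1_15 followed at 1.72 SD, and N1_22 was lowest at -1.38 SD. gene13435 did not keep its sign in block 2 (r = -0.461 to the rest of the set).

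Set 4 held 15 genes, among them gene3461, and was led by gene4126 (LOC108558109), gene4390 (LOC108558422) and gene5443. Its mean r was 0.682 in block 1 and 0.622 in block 2. gene4126 had lowest, median and highest levels of 16.01, 68.8 and 155 CPM in FC_POP FC_ENV, 48.9, 88.0 and 137 CPM in FC_POP NC_ENV and 19.1, 57.4 and 119 CPM in NC_POP FC_ENV. In NC_POP NC_ENV they were 6.91, 51.9 and 166 CPM. The lowest of these was N1_30, which stood at -2.21 SD for the set and had the lowest deviation from its group mean for 8 of its 15 genes. F2_31, lowest for set 1, was highest for set 4 at 1.56 SD.

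Set 5 held 8 genes, led by gene5183, gene13577 and gene2524 (LOC108556320) and including gene6257. Its mean r was 0.637 in block 1 and 0.563 in block 2. gene5183 ran from 3.44 to 21.2 CPM in FC_POP FC_ENV, from 6.55 to 14.1 CPM in FC_POP NC_ENV, from 4.65 to 30.1 CPM in NC_POP FC_ENV and from 3.88 to 21.4 CPM in NC_POP NC_ENV, with group medians of 8.88 to 11.3 CPM. N1_27 stood at 2.34 SD and had the highest deviation from its group mean for 7 of the 8 genes, followed by N2_07 at 1.71 SD, and F2_28 was lowest at -1.71 SD. The same family N1_27 was among the lowest for set 2.

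**Figure D2:**
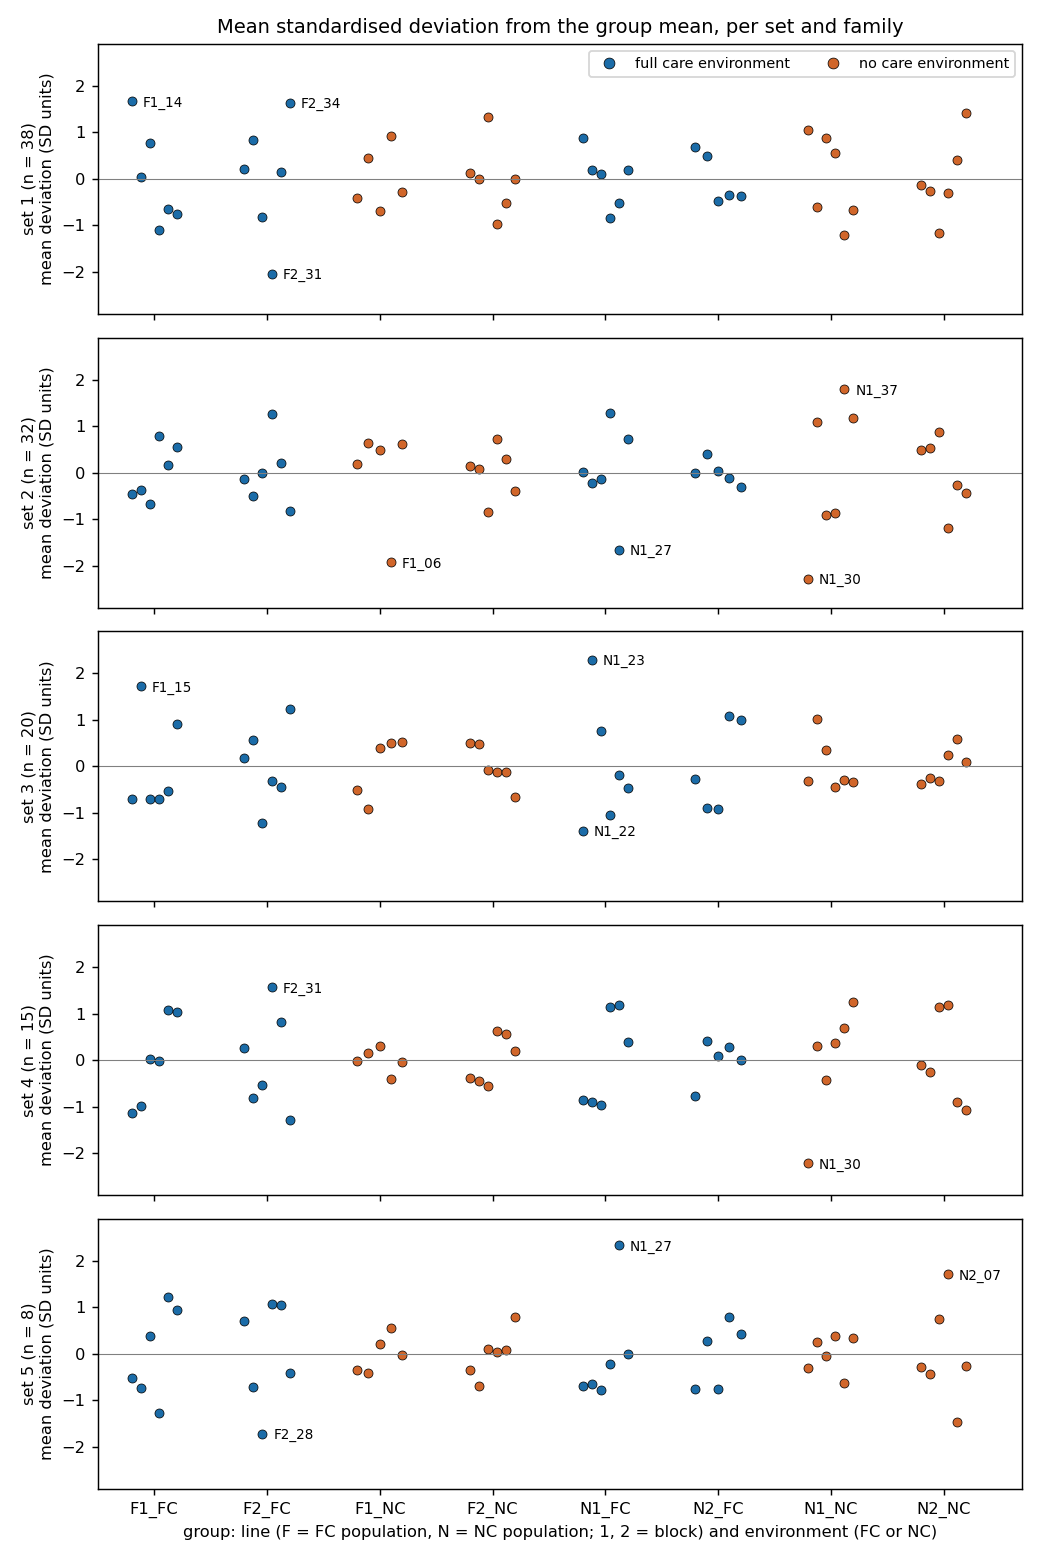
Mean standardised deviation of each set from the group mean (in SD) for every family, by group, with blue for full care and orange for no care. Families of 1 group reach from -2.28 to 1.79 SD (N1_NC, set 2), and the named families (N1_30 low in sets 2 and 4, F2_31 low in set 1 and high in set 4, N1_23 high in set 3, N1_27 high in set 5) are the extremes.

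The sets were not independent of each other. Set 1 was opposed to set 2 (r of set means -0.672 in block 1 and -0.696 in block 2) and to set 4 (-0.698 and -0.765). Set 4 moved with set 2 (0.531 and 0.487) and with set 5 (0.574 and 0.769), but sets 2 and 5 did not follow each other (-0.293 and 0.0326). Set 3 was the most separate, with absolute values of at most 0.219 to the other sets in block 1 and at most 0.412 in block 2.

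**Figure D3:**
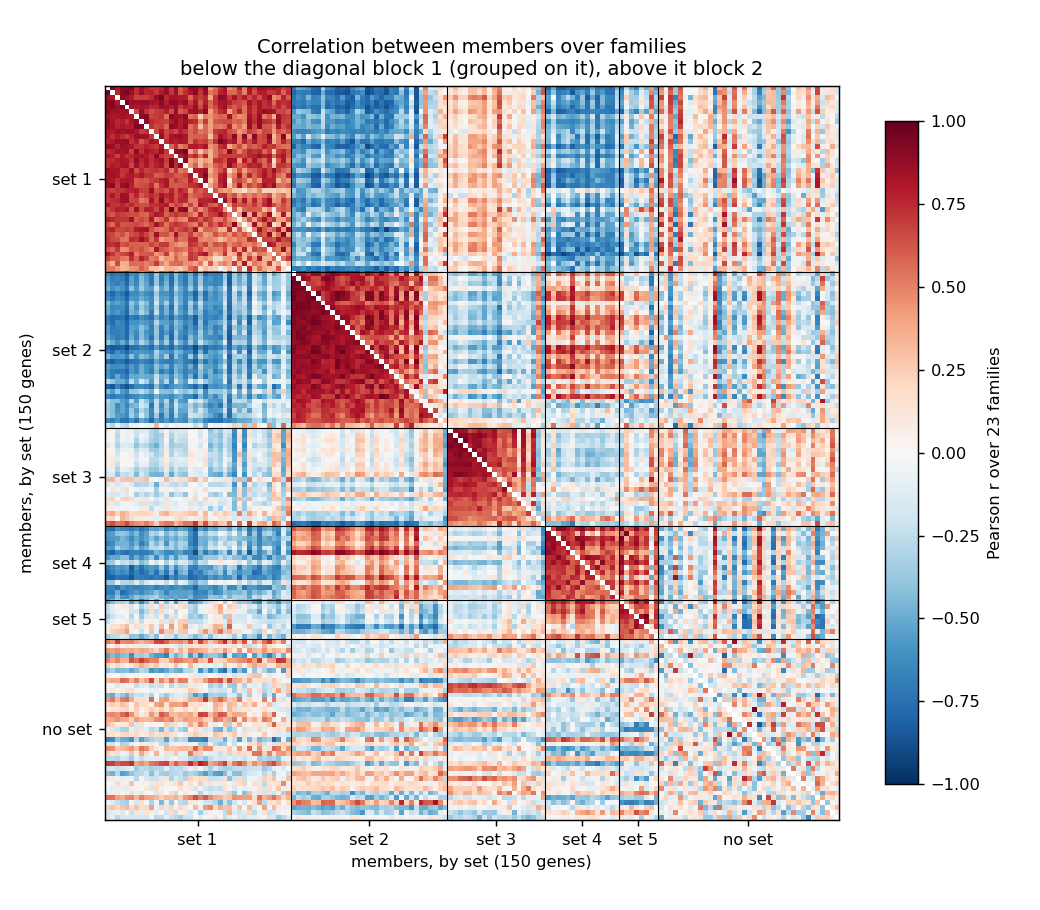
Pearson's r between the 150 genes over the 23 families of block 1 (below the diagonal) and of block 2 (above it), in the order of the sets grouped on block 1. Red squares along the diagonal return above it in block 2 (mean r within sets of 0.458 to 0.662), and sets 1 and 2 and sets 1 and 4 are blue against each other in both blocks.

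Of the 7 pairs among the 150 genes with identifiers at most 3 apart, gene5443 and gene5446 (set 4; r = 0.904 and 0.916 in the 2 blocks), gene8316 and gene8319 (set 1; 0.905 and 0.906) and gene11460 and gene11461 (set 1; 0.666 and 0.643) moved together. The other 4 pairs had r between -0.348 and 0.235. Whether genes of such pairs share reads was not tested.

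Genes outside the 150 also followed the sets closely, and the 10 named here exceeded at least 1 of the limits on level, environment and line. Set 1 was followed most closely by gene4236 (LOC108558250, r = 0.961 over 46 families) and gene2020 (0.957), set 2 by gene803 (0.971) and gene3876 (LOC108557848, 0.971), and set 3 by gene4980 (0.964) and gene4179 (LOC108558181, 0.961). Set 4 was followed by gene713 (0.968) and gene5940 (0.954), and set 5 by gene6772 (0.935) and gene5934 (0.930). Of these 10 genes, gene5934 alone had a mean SD below that of the last of the 150, at 0.450. gene4236 and its symbol's neighbour gene4237, a member of set 1, correlated at 0.941 in block 1 and 0.912 in block 2, and whether they share reads was not tested. Of 11627 other genes, 9.77% had r above 0.5 and 4.28% under -0.5 with set 1. The shares were 4.09% and 16.5% for set 2, 4.27% and 0.103% for set 3, 6.48% and 6.29% for set 4 and 14.6% and 4.89% for set 5.

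Products were known for 82 genes, and 78 of them could be compared with the sets. The study had listed these 82, from these same libraries, as differentially expressed without care in NC_POP but not in FC_POP. None was among the 150. The clearest relation was that of set 5 with cuticle protein genes, which build the larval exoskeleton: 8 of 10 had r under -0.5 with set 5 over 46 families, against 4.89% of all genes compared, and the same count was found in each block. Among all 78 genes of the study's list, 20 were under -0.5 and 13 over 0.5 with set 5, so other genes of the list also followed or opposed it. The 8 cuticle genes under -0.5 included the 3 flexible cuticle protein 12-like genes (gene7362, gene12435 and gene7462, with r of -0.792, -0.765 and -0.728). The rest of the 8 were pupal cuticle protein 20-like (gene4423, -0.793), larval cuticle protein A2B-like (gene9321 and gene3661, -0.684 and -0.644), larval cuticle protein A3A-like (gene3237, -0.665) and 1 of 3 pupal cuticle protein C1B-like genes (gene6796, -0.728). All 8 lay below their group mean together in F1_06, F1_18, F2_31, F2_32, F2_41, F2_47, N1_27, N1_33, N2_07, N2_10 and N2_21, so they are not separate cases. Among these families, set 5 was not high in N1_33 (-0.0413 SD) and N2_10 (-0.267 SD). The range of the 8 was -0.729 to -0.566 without N1_27 and -0.671 to -0.469 without N1_27 and N2_07. The mean L of these 8 genes also differed between environments, by -3.02 to -1.48 (NC_ENV minus FC_ENV), which the deviations from group means remove.

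The other 2 cuticle genes, gene5093 and gene5094 (pupal cuticle protein C1B-like), went a different way. They correlated with set 5 at 0.263 and 0.333, followed set 1 (0.636 and 0.565) and were opposed to set 2 (-0.676 and -0.657). With set 2, the 3 larval cuticle protein genes had r of 0.591 to 0.648 over all families, but 0.735 to 0.771 in block 1 and 0.243 to 0.410 in block 2. Set 3 showed no such relation, with r of 0.0445 to 0.208 to the 10 genes. The digestive, immune, detoxification and chemosensory lists held 3 to 5 named genes each, and at most 1 gene of a list passed an absolute r of 0.5 with any set. Over all sets, r ran from -0.644 to 0.486 for the digestive list, from -0.555 to 0.556 for the immune list, from -0.533 to 0.508 for the detoxification list and from -0.300 to 0.286 for the chemosensory list. The stress, mobile element and storage lists held 1 gene each, with r between -0.469 and 0.280.

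**Figure D4:**
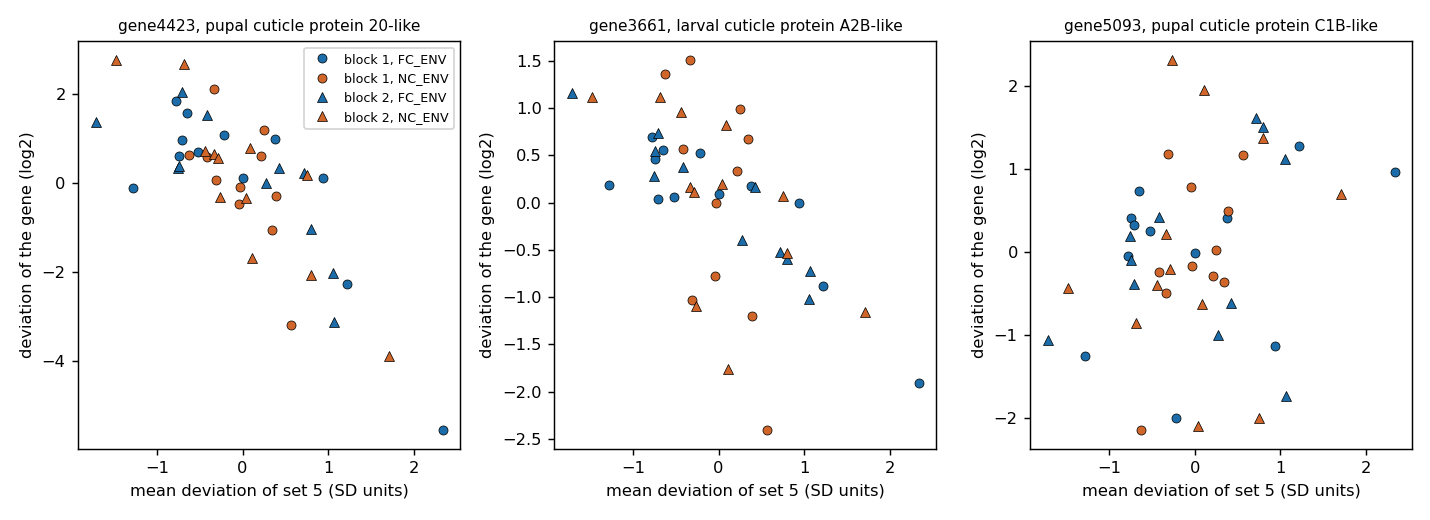
Deviation from the group mean (log2) of 3 cuticle protein genes against the mean deviation of set 5 (SD) in 46 families. gene4423 (r = -0.793) and gene3661 (-0.644) fall as set 5 rises, with N1_27 at the far right, and gene5093 (0.263) does not.

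Measures of the libraries moved with some of the sets, and their part in the co-variation was not tested. Over the 46 families, with group means removed, the TMM factor (a scaling between libraries that discounts the most changed genes) had r = -0.596 with set 2 and 0.456 with set 5. The number of genes with at least 15 counts, from 10675 to 11409 per library, had r = 0.467 with set 3 and 0.388 with set 5. The share of counts in the 20 most abundant genes, from 12.3% to 19.1%, had r = -0.457 with set 5. Total counts had r between -0.179 and 0.162 with the sets. With TMM-scaled libraries the mean r within sets in block 2 was 0.591.

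The chosen genes were alike in mean level between environments by rule, but the spread between families could still differ. Absolute deviations from the group mean, corrected for group size, were compared between environments with limma across 11777 genes. Of these, 9.20% (1084 genes) were called at an adjusted p under 0.05, 4.02% wider in NC_ENV and 5.18% narrower. Of the 150 genes, 17 were called, or 11.3%, a share near that of all genes. Of the 17, 14 were narrower and 3 wider in NC_ENV. The test used the same deviations whose SD, averaged over both environments, chose the genes, so these counts and the p-values of the members are given as a description.

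**Figure D5:**
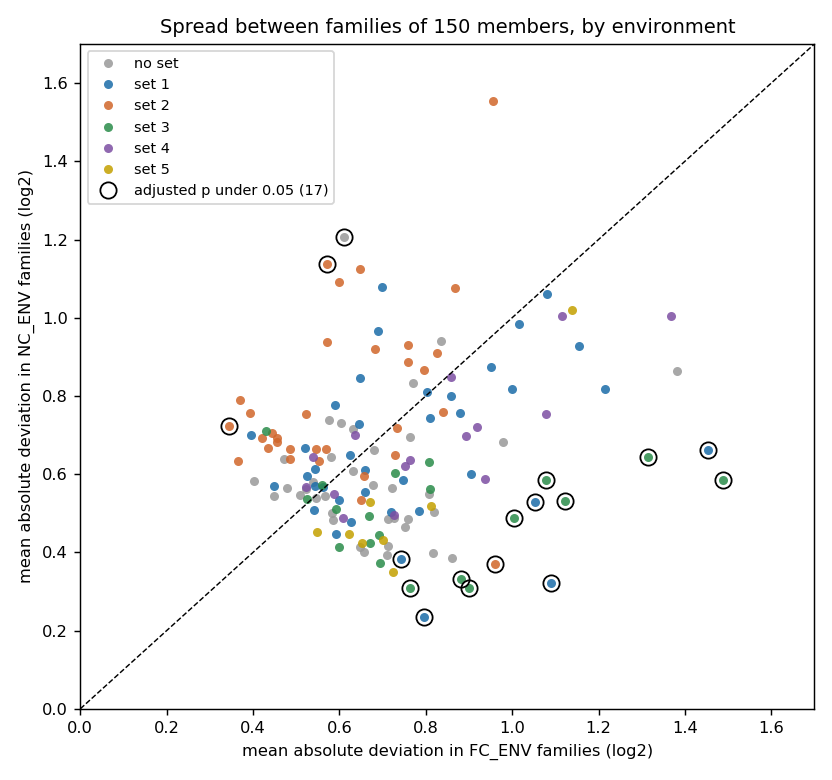
Mean absolute deviation from the group mean (log2) of each of the 150 genes in FC_ENV families (x) and NC_ENV families (y), coloured by set, with the line of equality. The 17 circled genes had a limma adjusted p under 0.05, and 14 of them lie below the line, among them 8 genes of set 3.

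Genes of set 3 made up 8 of the 14 narrower ones. gene12903, whose levels are given above, had a mean absolute deviation of 1.49 in FC_ENV and 0.584 in NC_ENV (difference -0.90 ± 0.20 SE, limma adjusted p = 0.00315, 23 families in each environment). Over the 20 genes of the set, the median was 0.747 in FC_ENV and 0.522 in NC_ENV. Because these genes share their high families, they are not separate cases. In set 1, gene11573 was called most strongly (1.09 against 0.321, limma adjusted p = 0.00210): it spanned 1.69 to 69.8 CPM in FC_POP FC_ENV and 3.79 to 33.9 in NC_POP FC_ENV, but 3.52 to 9.62 in FC_POP NC_ENV and 4.82 to 16.3 in NC_POP NC_ENV. In set 2, 26 of 32 genes had the larger deviation in NC_ENV and 6 the smaller, where 5178 of all 11777 genes had the smaller. The 32 genes shared low families such as N1_30 and F1_06, so they are not separate cases either. Of the 26, gene11828 (0.343 against 0.722, limma adjusted p = 0.0348) and gene5462 (0.571 against 1.14, 0.0340) were called, whereas gene7004 was called in the other direction. gene385, the long non-coding RNA, was also wider in NC_ENV (0.611 against 1.21, limma adjusted p = 0.0189); it was under 1 CPM in 5 families of NC_ENV and in 4 of FC_ENV. The 17 were called on both blocks together, whereas block 1 alone gave 2 calls and block 2 alone 3. With deviations from the group median instead of the mean, none of the 150 was called (lowest limma adjusted p 0.0709). The 17 kept their direction, and 88 genes were called in all. In that limma test, 22 of the 150 and 1956 of all 11777 genes had an unadjusted p under 0.05. Without the 4 libraries that stood apart, 24 of the 150 and 1137 genes in all were called.

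Between populations, the same test called 0.204% of all genes (24) and none of the 150. By limma, 13 of the 150 and 1190 of all 11777 genes had an unadjusted p under 0.05. The lowest adjusted p among the 150 was 0.0608, and the median difference was 0.0252 on the log2 scale, against -0.00534 over all genes tested.

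Whether the effect of care on the level differed between populations was tested with edgeR's quasi-likelihood test, with the block as a covariate. The call needed an adjusted p under 0.01 and an absolute log2 difference of at least 1. Of 11777 genes, 0% were called, and 940 had an unadjusted p under 0.05. Among the 150, none was called and 9 had an unadjusted p under 0.05, the lowest being gene8606 (log2 difference 1.19 ± 0.37 SE, edgeR adjusted p = 0.526) and gene6049 (1.71 ± 0.59 SE, 0.526), both of set 1. DESeq2 called 1 gene, which was not among the 150.

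The 37 genes in no set had mean levels of 1.01 to 431 CPM (median 7.52) and a median mean SD of 0.704, close to that of the sets (0.638 to 0.833). They included gene6959 and gene385, ranked 3 and 19 by SD.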

How the data were processed

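RNA was measured in 46 libraries. The labels name 60 samples, of which 14 are bisulfite libraries, not analysed here. Reads were trimmed, aligned with HISAT2 against the RefSeq assembly and quantified with StringTie by the authors, and the deposited values are whole-number counts without normalization. Multiples of 4 made up 39.8% of counts between 1 and 100, above the 25% among whole numbers. Strand use in counting is not given in the sources used here, so overlapping and antisense genes are uncertain.

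The 150 genes, the lists and the tests were chosen with earlier results of these data known. The difference of care in the rule was read as NC_ENV minus FC_ENV. Genes were named if they were among the 20 highest SDs, were the 3 leading a set by mean r in block 1, formed a closest pair, were called in a test, lay at the edge of the rule or, outside the 150, followed a set most closely; genes of the study's list are named by product. Symbols came from unique matches of mean normalised counts to the study's source data (relative tolerance 0.0001; 1769 genes) or from that list of 82 genes, and the 12 genes with both had the same symbol. Eye and muscle markers were not among the named products, so the labelled tissue was not checked.

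The fits used 11777 genes (15 counts or more in 10% of libraries) in R 4.3.3 with edgeR 4.0.16 (TMM) and limma 3.58.1, with 4 groups of population and environment and the block. DESeq2 1.42.0 was the other tool. Correlations used numpy 2.4.6 and 100000 permutations. The steps were tested on simulated data. Alternatives were TMM library sizes, pseudocounts of 0.1 and 5, other measures of spread, rank correlations, other limits, single blocks and the removal of each library. 0 columns were left aside.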

Additional observations from a re-analysis of the deposited data

Results flagged for a closer look

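In each of the 8 groups, the highest or lowest family was compared with the gap and range of its group for the 5 set means and for L of the 10 genes with the highest SD and the genes leading the sets. Of 160 comparisons, 6 stood apart by Dixon's criterion, and chance gives about 1 in 20.

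F1_06 stood apart from the other F1 families without care for set 2, at -1.919 SD against 0.176 to 0.646, and for gene981, at L = 0.05315 against 3.64 to 4.47. N1_27 stood apart among the N1 families with care for set 5, at 2.339 SD against -0.780 to 0.001. gene4237 was high in F2_41, at L = 9.256 against 6.24 to 7.22 in the other F2 families without care. gene5443 was low in N1_30, at L = 0.6361 against 4.47 to 6.10, and in N2_16, at 4.347 against 5.88 to 6.48.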

How the results depend on the processing

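No paired analysis was possible because no family occurs in more than 1 group, and where a number recurs, it belongs to a family of another line. Of the 150 genes, 15 remained when the limit on care was read as populations, 93 with a pseudocount of 5 and 120 to 143 with each library left out (fewest without N1_30). A pseudocount of 5 also moved the mean SD of gene981 to 0.943. For spread by environment, block 1 alone called 72 genes (2 of the 150), block 2 alone 278 (3) and the group median 88 (0), and leaving out each library 851 to 1379 (13 to 23). For spread by population, 9 genes were called in block 1, 70 in block 2, 49 with TMM library sizes, 0 with the group median, 73 without the filter (1 of the 150), 1 of the 150 with a pseudocount of 5, 11 without F2_31, F2_34, N1_30 and N1_27 (chosen after seeing the data) and 13 to 43 with each library left out (0 to 1 of the 150); N2_18, N2_24, N1_29 and N2_08 moved that count by over 1.5 times. The interaction had 0 calls without any 1 library and 1 with DESeq2. In block 2, leaving out each library gave a mean r within sets of 0.543 to 0.607, 0.591 to 0.690 in set 1, 0.481 to 0.561 in set 2, 0.423 to 0.472 in set 3, 0.562 to 0.648 in set 4 and 0.499 to 0.618 in set 5, and a mean r over all 150 of 0.00776 (without F2_28) to 0.0305. Set 1 had 0.565 without F2_31 and F2_34. All 10 pairs passed in each of these settings. The causes were not tested. Counting error weighs most on genes near or below 1 CPM, and its size was not tested.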
